A study of Rattus norvegicus with 9 samples.

Results

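The creatine kinase system and its supply of creatine were followed in neonatal rat ventricular myocytes through 7 genes of a table of 17327: the creatine kinases Ckmt2, Ckm and Ckb, the synthesis enzymes Gatm and Gamt, the creatine transporter Slc6a8 and the adenylate kinase Ak1. The genes were chosen by symbol and function, with earlier results of these data known, among them the larger read count of Ckmt2 with IGF1 than with vehicle. Their differences between the groups are therefore given as a description, with standard errors and without p-values. All 7 had a row in the table and passed the filter on low counts, as did 11873 genes in all.

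The cells were primary cardiomyocytes given 50 µM phenylephrine, an agonist of alpha-adrenergic receptors, 10 nM insulin-like growth factor IGF1, or vehicle. Treatments lasted 48 hours. There were 3 phenylephrine, 3 IGF1 and 3 vehicle samples, numbered as replicates. The labels do not say whether replicates were separate cultures or litters, so their spread may be technical. They name no strain, age in days or purity of the cells.

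Creatine kinases move a phosphate group between ATP and creatine. In heart muscle the sarcomeric mitochondrial enzyme, encoded by Ckmt2, makes phosphocreatine where ATP is exported, and the cytosolic enzymes, encoded by Ckm and Ckb, regenerate ATP beside myosin and the ion pumps. The B form is typical of the fetal heart and the M form of the adult heart, and a shift towards the B form is a known feature of overloaded myocardium. Creatine is made by the enzymes that Gatm and Gamt encode, mostly in kidney and liver, and muscle takes it up through the transporter encoded by Slc6a8.

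The upstream sequences of the 3 creatine kinase genes are shown because they encode the same enzyme activity and the level of each differed from the others under the same stimuli. They are the 250 bases before the gene start in RefSeq, build GRCr8, which is not the build of the count table, written 5′ to 3′. Capitals mark E-boxes (CANNTG, bound by basic helix-loop-helix factors) in Ckmt2 and Ckm. In Ckb they mark a match to the MEF2 element, which overlaps a TATAAA box.
Ckmt2 promoter, chr2:24845512-24845761, minus strand: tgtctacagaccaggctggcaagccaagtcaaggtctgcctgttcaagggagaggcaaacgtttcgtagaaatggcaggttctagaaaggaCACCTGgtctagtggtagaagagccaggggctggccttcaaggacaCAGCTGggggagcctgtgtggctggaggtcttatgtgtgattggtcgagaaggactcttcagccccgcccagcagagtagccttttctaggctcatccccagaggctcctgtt
Ckm promoter, chr1:88189211-88189460, plus strand: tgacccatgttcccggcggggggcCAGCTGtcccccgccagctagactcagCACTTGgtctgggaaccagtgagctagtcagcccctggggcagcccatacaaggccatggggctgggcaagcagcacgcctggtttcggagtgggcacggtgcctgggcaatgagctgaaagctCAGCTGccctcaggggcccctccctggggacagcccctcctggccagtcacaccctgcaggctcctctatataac
Ckb promoter, chr6:136553465-136553714, minus strand: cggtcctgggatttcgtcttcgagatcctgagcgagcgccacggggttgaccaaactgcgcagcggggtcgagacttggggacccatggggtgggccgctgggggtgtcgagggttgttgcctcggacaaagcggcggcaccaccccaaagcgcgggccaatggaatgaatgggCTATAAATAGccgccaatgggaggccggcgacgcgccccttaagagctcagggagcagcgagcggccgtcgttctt

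Searched on both strands, CANNTG matched 2 times in the Ckmt2 window, 3 times in that of Ckm and 0 times in that of Ckb, and 65.5% of 33469 RefSeq windows of this length held it. The MEF2 element of Ckb was found in 2.96% of windows and TATAAA in 12.9%. The ERR element AAGGTCA, in 3.99% of windows, the GATA element AGATAA, in 10.3%, and the CArG box, in 1.5%, matched none of the 3. The CCAAT box, in 34.0% of windows, matched 1 time in Ckmt2 and 2 times in Ckb, and the GC box GGGCGG, in 30.5%, matched 1 time in Ckmt2; these are not in capitals. The Ckb window held 25 CpG dinucleotides, against 4 for Ckmt2 and 6 for Ckm. A match is a description of the letters, and binding was not measured.

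Library totals ran from 31274396 to 48505265 reads, and levels are given as CPM, the counts per 1000000 reads after scaling by trimmed-mean (TMM) factors. A level of 1 CPM stood for 29.1 to 51.6 reads. IGF1 replicate 1 stood apart from the others of its group. Of 9301 genes averaging at least 5 CPM, 259 and 223 differed over 1.5-fold between it and IGF1 replicates 2 and 3, while the other within-group pairs differed at 5 to 28 genes. Of the 7 genes, Gatm and Ckb differed most between it and the other IGF1 samples, and their fold changes that involve IGF1 are given with and without it. Summed over 10 cardiomyocyte markers, all measured, levels were 58174 to 58804 CPM with phenylephrine, 51345 to 64602 CPM with IGF1 and 46064 to 49824 CPM with vehicle. Of 8 fibroblast markers the sums were 4657 to 4751 CPM with phenylephrine, 5896 to 6807 CPM with IGF1 and 5019 to 6002 CPM with vehicle, with Col1a2 under 1 CPM in every sample. Smooth muscle markers, 7 in all, summed to 2706 to 2766 CPM with phenylephrine, 1626 to 2219 CPM with IGF1 and 1823 to 1917 CPM with vehicle. Genes typical of other cell types were thus read in all groups, and these ranges did not all overlap. Endothelial markers, 7 in all, summed to 44.2 to 56.3 CPM with phenylephrine, 23.7 to 30.6 CPM with IGF1 and 63.8 to 73.5 CPM with vehicle. Macrophage markers, 7 in all, summed to 32.2 to 42.5 CPM with phenylephrine, 33.9 to 39.7 CPM with IGF1 and 34.4 to 39.3 CPM with vehicle. The part of these cells in the levels below was not tested. In bulk RNA, fewer cells of a type and less RNA per cell cannot be told apart.

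**Figure D1:**
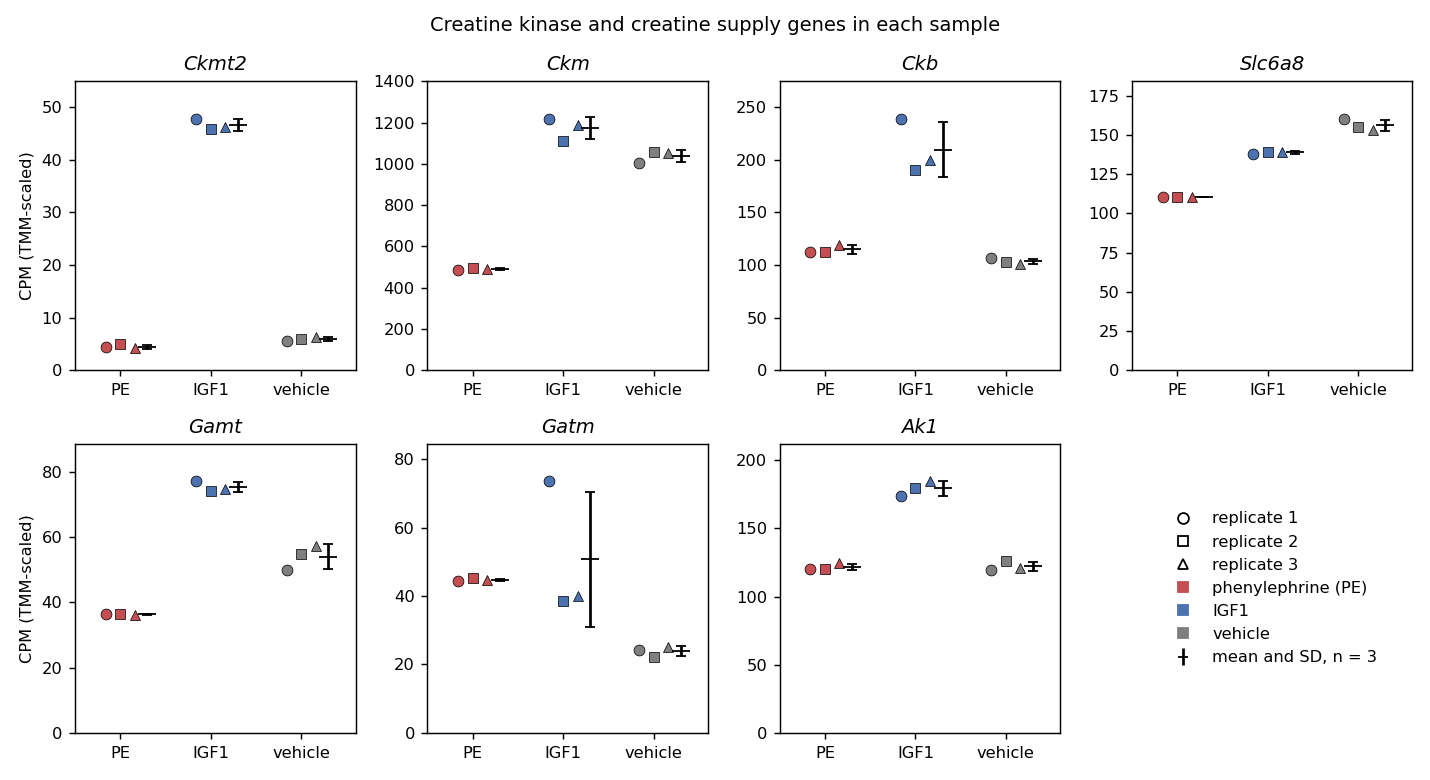
Level of each of the 7 genes in each sample, in CPM with TMM scaling, by group (PE is phenylephrine). Symbols are replicates and the black bars are mean and SD of 3 samples. Ckmt2 lies near 47 CPM with IGF1 and at 6.36 CPM or less in all other samples, Ckm is lowest with phenylephrine, and Gatm in IGF1 replicate 1 stands apart from the rest of its group.

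Ckmt2 had the widest range of the 7 genes. It measured 4.36, 4.89 and 4.14 CPM in the phenylephrine samples and 47.8, 45.8 and 46.3 CPM in the IGF1 samples, against 5.64, 5.99 and 6.36 CPM in the vehicle samples. All IGF1 samples were far above the rest, all phenylephrine samples were below all vehicle samples, and no groups overlapped. These levels rested on 127 to 153 reads per library with phenylephrine, 1452 to 2208 with IGF1 and 245 to 328 with vehicle.

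The gene for the sarcomeric mitochondrial enzyme was thus 7.77-fold higher with IGF1 than with vehicle (log2 fold change 2.96, SE 0.08). In that comparison 6 of the 11873 genes tested had a higher log2 fold change. This rank is a description only, since Ckmt2 was chosen with that difference known. With phenylephrine Ckmt2 was 1.34-fold lower than with vehicle (log2 fold change -0.43, SE 0.09). Set directly against IGF1, phenylephrine gave a level 10.4-fold lower (log2 -3.38, SE 0.08). IGF1 replicate 1, which differed from its group at other genes, was 1.04-fold and 1.03-fold above IGF1 replicates 2 and 3 here, and the log2 fold change of IGF1 against vehicle was 2.94 without it.

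Ckm, encoding the muscle form that regenerates ATP at the M-band of the sarcomere, differed from vehicle mainly with phenylephrine. Its levels were 488, 497 and 491 CPM with phenylephrine and 1219, 1114 and 1187 CPM with IGF1, against 1003, 1056 and 1054 CPM with vehicle. The phenylephrine samples lay within 1.02-fold of each other and below every other sample, while the IGF1 samples lay just above the vehicle samples. Ckm was 2.11-fold lower with phenylephrine than with vehicle (log2 -1.08, SE 0.05) and 2.39-fold lower than with IGF1 (log2 -1.25, SE 0.05). Between IGF1 and vehicle the difference was 1.13-fold (log2 0.18, SE 0.04), and 0.09 on the log2 scale when libraries were scaled by size only.

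The level of Ckm with phenylephrine was lower than with vehicle while the summed cardiomyocyte markers were higher. Of the 10 markers, 6 passed the threshold as higher and 4 as lower in that comparison, so the higher sum was not shared by all. Of all genes tested, 27.9% were called as higher and 28.9% as lower there. Skeletal muscle also expresses Ckm, and its 11 markers summed to 6.80 to 8.01 CPM with phenylephrine, 8.20 to 12.1 CPM with IGF1 and 8.51 to 9.31 CPM with vehicle. Its defining genes Myod1, Myog, Myf5, Myf6 and Pax7 were under 1 CPM in every sample.

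Ckb, the B form, was higher with IGF1. Levels were 112, 112 and 119 CPM with phenylephrine and 239, 190 and 199 CPM with IGF1, against 106, 103 and 101 CPM with vehicle. Every IGF1 sample was above every other sample, and IGF1 replicate 1 was the highest of them, 1.26-fold and 1.20-fold above replicates 2 and 3. Ckb was 2.03-fold higher with IGF1 than with vehicle (log2 1.02, SE 0.07), and the log2 fold change was 0.92 (SE 0.04) without IGF1 replicate 1.

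With phenylephrine, Ckb differed little from vehicle (log2 0.15, SE 0.07). That small difference did not keep its sign: it was -0.04 with scaling by library size only. Against IGF1, phenylephrine gave 1.83-fold less Ckb (log2 -0.87, SE 0.07, and -0.77 without IGF1 replicate 1). Glial and Schwann cells also express Ckb, and their 6 markers summed to 15.9 to 17.0 CPM with phenylephrine, 15.2 to 17.1 CPM with IGF1 and 19.6 to 22.1 CPM with vehicle, with Sox10 under 1 CPM in every sample. The part of these markers in the levels of Ckb was not tested.

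**Figure D2:**
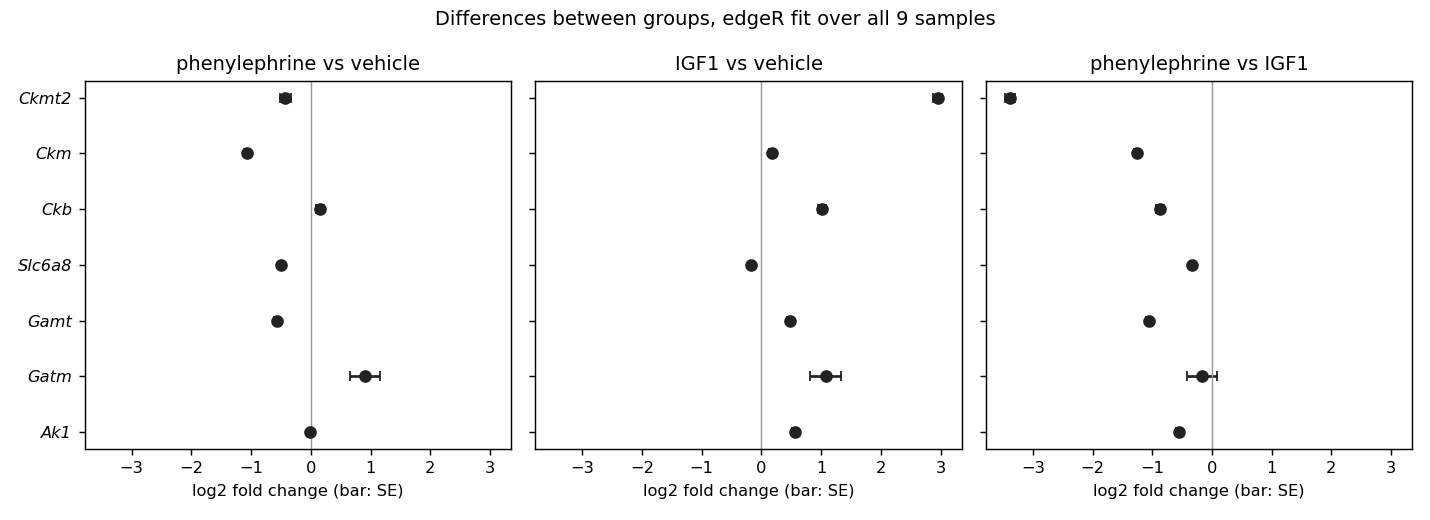
Log2 fold change of the 7 genes in the 3 comparisons, with bars of 1 SE, from a fit over all 9 samples and with values above 0 meaning higher in the group named first. Ckmt2 spans 2.96 with IGF1 against vehicle to -3.38 with phenylephrine against IGF1, and Gatm has the widest SE.

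The makeup of creatine kinase reads does not depend on how libraries are scaled to each other. Ckm held 80.0% ± 0.54 of all reads of Ckm, Ckb, Ckmt1b and Ckmt2 with phenylephrine and 81.9% ± 1.04 with IGF1, against 90.3% ± 0.45 with vehicle (SD, n = 3 each). Its share was thus lower under both stimuli, with no overlap with vehicle. These are shares of reads without correction for transcript length, so they say nothing of the ratio of transcripts between genes.

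The shares that were larger differed between the stimuli. Ckb held 18.6% ± 0.57 of creatine kinase reads with phenylephrine and 14.6% ± 1.06 with IGF1, against 8.99% ± 0.46 with vehicle, and its share with IGF1 was 14.0% without IGF1 replicate 1. Ckmt2 held 0.726% ± 0.062 with phenylephrine and 3.26% ± 0.11 with IGF1, against 0.521% ± 0.022 with vehicle. The larger share of Ckb with phenylephrine came with a near equal level of Ckb and a lower level of Ckm, whereas with IGF1 it came with a higher level of Ckb itself.

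Within a library, Ckb had 0.233 ± 0.009 reads per read of Ckm with phenylephrine and 0.178 ± 0.015 with IGF1, against 0.0996 ± 0.0056 with vehicle. The IGF1 samples had 0.196, 0.171 and 0.168, replicate 1 being the highest. Ckmt2 had 0.00907 ± 0.00072 reads per read of Ckm with phenylephrine and 0.0398 ± 0.0012 with IGF1, against 0.00578 ± 0.00022 with vehicle. So relative to Ckm the sarcomeric mitochondrial form was highest with IGF1 and also above vehicle with phenylephrine, although its own level there was below that of vehicle. Summed over the 4 genes, creatine kinase levels were 615 ± 6.0 CPM with phenylephrine and 1433 ± 78.7 CPM with IGF1, against 1149 ± 27.8 CPM with vehicle.

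**Figure D3:**
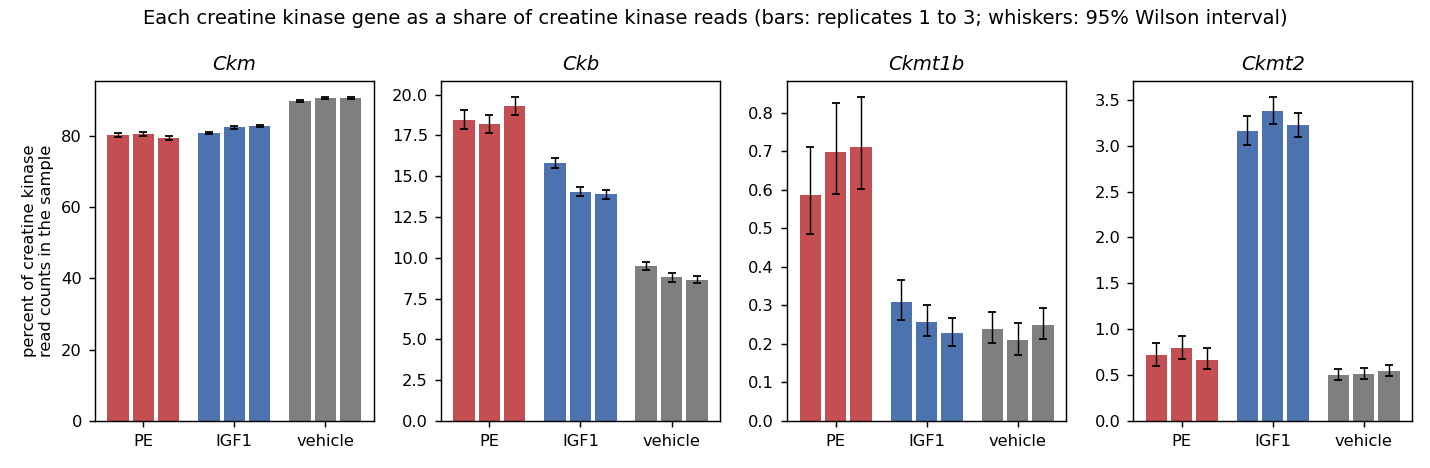
Share of each creatine kinase gene in the creatine kinase reads of a sample, in percent, for the 3 samples of each group (PE is phenylephrine) with 95% Wilson intervals, which cover counting error only. Ckm takes 79.3% to 82.7% in treated samples and 89.7% to 90.5% in vehicle samples, and Ckmt2 takes 3.16% to 3.38% with IGF1 and at most 0.791% elsewhere.

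Among the supply genes, Gatm and Gamt encode the successive steps of creatine synthesis. Against vehicle they went opposite ways with phenylephrine and were both higher with IGF1. Gatm, encoding the amidinotransferase of the first step, measured 44.3, 45.2 and 44.6 CPM with phenylephrine and 73.5, 38.7 and 40.0 CPM with IGF1, against 24.2, 22.2 and 25.0 CPM with vehicle. All treated samples were above all vehicle samples, and IGF1 replicate 1 was 1.90-fold and 1.84-fold above IGF1 replicates 2 and 3. Gatm was 1.87-fold higher with phenylephrine than with vehicle (log2 0.91, SE 0.26) and 2.11-fold higher with IGF1 than with vehicle (log2 1.08, SE 0.26). The call of phenylephrine against vehicle ended when any 1 of those 6 samples was left out (log2 0.85 to 0.93). The SE of 0.26 reflects the spread over all 9 samples, IGF1 replicate 1 included. With only phenylephrine and vehicle fitted, the difference was called (log2 0.91, SE 0.05). It was also called without IGF1 replicate 1 (log2 0.91, SE 0.05).

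The size of the IGF1 difference and its order against phenylephrine rested on IGF1 replicate 1. Without that library the log2 fold change of IGF1 against vehicle was 0.72 (SE 0.06), and phenylephrine against IGF1 was 0.18 (SE 0.06), called as higher by edgeR, in place of -0.17 (SE 0.25), which was not called. The ventricular light chain gene Myl2, a cardiomyocyte marker, had the profile nearest to Gatm over the 9 samples. It measured 2449, 2369 and 2504 CPM with phenylephrine and 3755, 1965 and 2094 CPM with IGF1, against 1150, 1359 and 1454 CPM with vehicle. Myl2 was picked by its profile over all 9 samples, so its high level in IGF1 replicate 1 was part of that choice. Without that library, 0 of the 3 genes nearest to Gatm were the same. The part of that library's difference in the Gatm result was not tested beyond leaving it out.

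Gamt, encoding the methyltransferase that completes creatine, was lower with phenylephrine and higher with IGF1. It measured 36.5, 36.6 and 36.2 CPM with phenylephrine and 77.1, 74.3 and 74.9 CPM with IGF1, against 49.8, 54.8 and 57.5 CPM with vehicle. The groups did not overlap, and the phenylephrine samples were within 1.01-fold of each other. Gamt was 1.48-fold lower with phenylephrine than with vehicle (log2 -0.57, SE 0.05), 1.40-fold higher with IGF1 than with vehicle (log2 0.48, SE 0.05), and 2.07-fold lower with phenylephrine than with IGF1 (log2 -1.05, SE 0.05). Within a library there were 1.23 ± 0.01 reads of Gatm per read of Gamt with phenylephrine and 0.669 ± 0.246 with IGF1, against 0.442 ± 0.041 with vehicle. The IGF1 samples had 0.953, 0.520 and 0.534, replicate 1 being the highest.

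Slc6a8, the sodium-coupled transporter that brings creatine into muscle, was lower under both stimuli. It measured 110, 110 and 111 CPM with phenylephrine and 138, 139 and 139 CPM with IGF1, against 160, 155 and 153 CPM with vehicle. Levels were lowest with phenylephrine, between with IGF1 and highest with vehicle, with no overlap and little spread inside each group. It was 1.41-fold lower with phenylephrine than with vehicle (log2 -0.50, SE 0.04) and 1.12-fold lower with IGF1 than with vehicle (log2 -0.17, SE 0.04). Of the 7 genes it was the one called lower with both stimuli.

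Ak1, the cytosolic adenylate kinase that makes ATP and AMP from ADP, was higher with IGF1. It measured 120, 120 and 124 CPM with phenylephrine and 174, 180 and 184 CPM with IGF1, against 120, 126 and 121 CPM with vehicle. The phenylephrine and vehicle samples overlapped, and all IGF1 samples were above both. Ak1 was 1.47-fold higher with IGF1 than with vehicle (log2 0.55, SE 0.04). Between phenylephrine and vehicle its log2 fold change was -0.0064 (SE 0.04) with TMM scaling and -0.20 with scaling by library size only.

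Across the set, the fit over all genes (edgeR, adjusted p under 0.05 after Benjamini-Hochberg adjustment) called 5 of the 7 genes with phenylephrine against vehicle, 1 as higher (Gatm) and 4 as lower (Ckmt2, Ckm, Slc6a8 and Gamt). In that comparison 56.8% of all genes tested were called, 27.9% as higher and 28.9% as lower. The median log2 fold change was -0.43 over the 7 genes and -0.029 over all genes. With IGF1 against vehicle all 7 were called, 6 as higher and 1, Slc6a8, as lower, where 48.1% of all genes were called, 24.7% as higher and 23.4% as lower. The median log2 fold change was 0.55 over the 7 genes and -0.0018 over all genes. Since the genes were chosen with these results in view, nothing is read from the counts, and both comparisons share the vehicle samples.

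With phenylephrine against IGF1, 6 of the 7 genes were called, all as lower, and Gatm was not. Of all genes 54.2% were called, 27.1% in each direction. The median log2 fold change was -0.87 over the 7 genes and -0.0025 over all genes. Scaling by library size only moved the median of all genes with phenylephrine against vehicle by -0.19, with IGF1 against vehicle by -0.083 and with phenylephrine against IGF1 by -0.11. It left 23.5% of calls as higher with phenylephrine against vehicle in place of 49.1%, 36.0% in place of 51.3% with IGF1 against vehicle, and 32.8% in place of 49.9% with phenylephrine against IGF1.

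**Figure D4:**
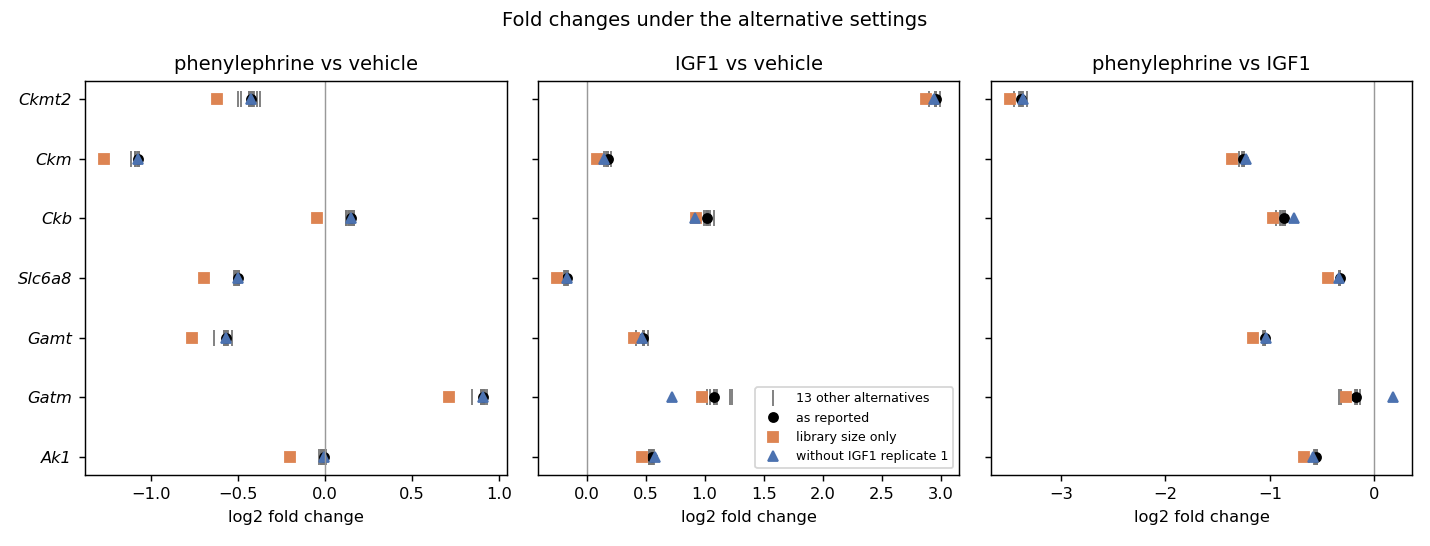
Log2 fold change of the 7 genes in the 3 comparisons as reported and under 15 alternative settings, each mark being 1 setting. Scaling by library size only shifts all 7 genes to the left and takes Ckb across 0 with phenylephrine against vehicle, and leaving out IGF1 replicate 1 moves Gatm most.

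A list of 93 further genes around the members was taken by function, with earlier results of these data known. Of these genes 80 were tested. Their counts and adjusted p-values are therefore a description and not independent tests. With phenylephrine against vehicle 33 rose and 21 fell, so 67.5% were called, beside 56.8% of all genes. With IGF1 against vehicle 31 rose and 12 fell, or 53.8% beside 48.1% of all genes. With phenylephrine against IGF1 19 were higher and 24 lower, or 53.8% beside 54.2% of all genes. Under scaling by library size only, 20 were higher and 34 lower with phenylephrine against vehicle, 20 higher and 16 lower with IGF1 against vehicle, and 15 higher and 33 lower with phenylephrine against IGF1.

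Of 15 other kinases of the phosphate transfer network and creatine or taurine carriers, 6 rose and 4 fell with phenylephrine (56.8% of all genes called), and 4 rose and 3 fell with IGF1 (48.1%). Ckmt1b, which RefSeq names Ckmt1 and which encodes the ubiquitous mitochondrial creatine kinase, averaged 4.09 ± 0.45 CPM with phenylephrine and 3.81 ± 0.76 CPM with IGF1, against 2.67 ± 0.23 CPM with vehicle. It rose with phenylephrine (log2 0.61, edgeR adjusted p = 0.0062). With IGF1 (log2 0.49, adjusted p = 0.024) its call ended without IGF1 replicate 1 (log2 0.33, adjusted p = 0.11), without vehicle replicate 1 or 2 and with scaling by library size only.

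The pair of mitochondrial creatine kinase genes differed in their response to IGF1 within each library. There were 12.5 ± 2.0 reads of Ckmt2 per read of Ckmt1b with IGF1, and 1.10 ± 0.14 with phenylephrine, against 2.25 ± 0.18 with vehicle. Ak4, a mitochondrial adenylate kinase, fell 2.10-fold with phenylephrine (edgeR adjusted p = 3.6e-04) and had a log2 fold change of 0.34 with IGF1 (adjusted p = 0.13). The level of Ak4 was low, at 1.17 ± 0.26 CPM with phenylephrine against 2.46 ± 0.23 CPM with vehicle. Nme1, a nucleoside diphosphate kinase, rose with both (log2 1.14 with phenylephrine, adjusted p = 1.7e-05, and 0.89 with IGF1, adjusted p = 1.4e-04). Without IGF1 replicate 1 the value of Nme1 with IGF1 was 0.73. Nme3 and Nme4, of the same family, fell with both. Their log2 fold changes were -0.39 and -0.76 with phenylephrine, and -0.33 and -0.47 with IGF1. Slc6a6, the taurine transporter of the same family as Slc6a8, rose with phenylephrine (log2 0.93, adjusted p = 5.1e-09), where Slc6a8 was lower.

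Of 18 genes of AMP sensing and adenine nucleotide turnover, 6 rose and 5 fell with phenylephrine (56.8% of all genes called), and 10 rose and 3 fell with IGF1 (48.1%). Ampd3, an AMP deaminase, fell with phenylephrine (log2 -0.73, edgeR adjusted p = 3.9e-06) and rose with IGF1 (log2 0.36, adjusted p = 0.0016). Adk, encoding adenosine kinase, rose with both (log2 0.64 with phenylephrine, adjusted p = 0.0014, and 0.77 with IGF1, adjusted p = 6.1e-04). Without IGF1 replicate 1 the value of Adk with IGF1 was 0.61. Nt5e, the enzyme that makes adenosine from AMP outside the cell, rose with phenylephrine (log2 0.92, adjusted p = 3.4e-08) and fell with IGF1 (log2 -0.60, adjusted p = 5.2e-06). Prkaa2, the AMP-activated kinase subunit of muscle, rose slightly with both (log2 0.28 with phenylephrine and 0.27 with IGF1), and both calls ended with scaling by library size only.

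Of 15 genes for mitochondrial export partners and sarcomeric anchors, 6 rose and 3 fell with phenylephrine (56.8% of all genes called), and 10 rose and 1 fell with IGF1 (48.1%). Slc25a4, encoding the muscle ADP/ATP carrier that works next to mitochondrial creatine kinase, rose with IGF1 (log2 0.35, edgeR adjusted p = 3.2e-05) and stood at -0.050 with phenylephrine (adjusted p = 0.39), where scaling by library size only gave a call as lower (log2 -0.24). Myom2, encoding an M-band protein that binds the muscle creatine kinase, averaged 1844 ± 44.2 CPM with phenylephrine and 470 ± 30.1 CPM with IGF1, against 2688 ± 80.8 CPM with vehicle. It fell with both stimuli (log2 -0.54 with phenylephrine, adjusted p = 4.8e-07, and -2.52 with IGF1, adjusted p = 3.6e-13). Fhl2, encoding a LIM protein that anchors metabolic enzymes to titin, rose with both (log2 0.45 with phenylephrine, adjusted p = 0.0019, and 0.94 with IGF1, adjusted p = 1.7e-05). Without IGF1 replicate 1 the value of Fhl2 with IGF1 was 0.80. Its relative Fhl1 averaged 5287 ± 53.1 CPM with phenylephrine against 584 ± 17.3 CPM with vehicle (log2 3.18, adjusted p = 0.010). The IGF1 samples of Fhl1 measured 3239, 603 and 609 CPM, replicate 1 being the highest. With IGF1 its log2 fold change was 1.35 (adjusted p = 0.16), and 0.055 without IGF1 replicate 1.

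Of 17 genes for arginine, glycine and methyl group supply, 8 rose and 3 fell with phenylephrine (56.8% of all genes called), and 4 rose and 2 fell with IGF1 (48.1%). Slc7a1, the cationic amino acid carrier that imports arginine, rose 2.83-fold with phenylephrine (edgeR adjusted p = 6.9e-04), as did Shmt2, which makes glycine in mitochondria, 2.87-fold (adjusted p = 8.9e-04). Mat2a, which makes the methyl donor that Gamt uses, rose with both (log2 0.42 with phenylephrine, adjusted p = 3.9e-07, and 0.29 with IGF1, adjusted p = 1.9e-05). Mat1a and Slc7a2 fell with phenylephrine (log2 -1.37, adjusted p = 1.4e-05, and log2 -0.64, adjusted p = 0.0056). The level of Mat1a was low, at 1.39 CPM with phenylephrine against 3.58 CPM with vehicle. Asl and Mat2b fell with IGF1 (log2 -0.45 and -0.24).

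Of 15 regulators of oxidative and muscle genes, 7 rose and 6 fell with phenylephrine (56.8% of all genes called), and 3 rose and 3 fell with IGF1 (48.1%). Ppargc1a, a coactivator of mitochondrial genes, fell with phenylephrine (log2 -0.57, edgeR adjusted p = 4.5e-06) and stood at -0.071 with IGF1 (adjusted p = 0.39). Esrra, an orphan nuclear receptor that works with it, was at 0.11 with phenylephrine (adjusted p = 0.047), and that call ended in 10 of the 15 alternatives and the value turned to -0.084 with scaling by library size only. Esrrb fell with phenylephrine (log2 -0.98, adjusted p = 3.9e-04), at a low level of 1.43 CPM against 2.84 CPM with vehicle. Its relative Esrrg was at 0.20 with phenylephrine (adjusted p = 0.0015), a call that ended with scaling by library size only, and fell with IGF1 (log2 -0.23, adjusted p = 6.3e-04). The cardiac transcription factor genes Gata4 and Srf rose with phenylephrine (log2 0.70, adjusted p = 7.3e-05, and log2 0.65, adjusted p = 2.7e-05).

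The genes whose profile lay nearest to each member were found by the root mean square difference of centred log2 CPM over the 9 samples, among 9507 candidate genes. Among the 3 nearest to Ckmt2 were the cell division genes Kif20a and Ccnb2, which differed from it by 0.49 and 0.50, against a median of 1.52 over the candidates. Both were also among the 3 nearest without IGF1 replicate 1. The single nearest genes of the other members lay closer, at 0.034 to 0.11.

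Ckm had Acaa2, a thiolase of fatty acid oxidation, and Cited4 as its nearest genes, at 0.062 and 0.063. Acaa2 averaged 148 ± 4.8 CPM with phenylephrine and 343 ± 2.4 CPM with IGF1, against 325 ± 11.3 CPM with vehicle. Ckb lay nearest to Oxct1, the ketone body transferase, at 0.079, Gamt to the acyl-CoA dehydrogenase Acads at 0.046, Slc6a8 to Vipas39 at 0.034, and Ak1 to the connexin gene Gja3 at 0.047. Without IGF1 replicate 1, between 0 and 2 of the 3 nearest genes of each member other than Ckmt2 were the same. Among the members themselves, Ckm and Gamt were the most alike, at 0.21, and Ckmt2 was at least 1.08 from every other.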

How the data were processed

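RNA sequencing measured gene expression in 9 samples of 3 groups. The authors deposited raw read counts per gene symbol, with no normalization. The tools named are STAR, HTSeq and DESeq, and the build rn5, per the submitters' processing notes. The role of each tool, the annotation, and whether counting used strand are not given in the sources used here. How reads that match several related creatine kinase genes were counted is not given either.

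Genes were kept with filterByExpr of edgeR 4.0.16 (minimum count 10, total 15), counts were scaled by TMM, and a robust quasi-likelihood model of group was fitted over all 9 samples in R 4.3.3. Benjamini-Hochberg adjustment of p-values ran over 11873 genes, with a threshold of 0.05. An SE was taken as |log2 fold change| over the root of its F statistic and reflects the spread over all 9 samples. The fit was tested on simulated data, in which few genes changed and no library stood apart. That test does not show how the fit handles IGF1 replicate 1 or changes in as many genes as were called here. Profiles used log2 CPM with a prior count of 2.

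The members and lists were chosen with earlier results of these data known. Genes of the lists were named by rule: up to 2 highest and 2 lowest called genes of each list with at least 1 CPM in a group, plus Ckmt1b, Slc25a4, Ppargc1a, Esrra, Ak4 and Prkaa2, and for each member the 3 nearest genes with at least 5 CPM in a group. Not all are described, and some items are not reported here. In 26 rows a date stands in place of a symbol. Alternatives were DESeq2 1.42.0, other scalings, no filter, 2-group fits, a replicate block and leaving out each sample. Repeating the search for nearest genes without IGF1 replicate 1 was chosen after seeing the data. The symbols of all 7 genes matched RefSeq, whose promoter table gave a sequence for 6 of them.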

Additional observations from a re-analysis of the deposited data

How the results depend on the processing

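Over 15 alternatives, 296 of 315 values for the 7 genes moved by less than the spread between replicates and 19 moved by more, mostly with scaling by library size only. Differences that were called kept their sign in all of them. The calls of Ckmt2, Slc6a8, Gamt and Ckm kept their side of the threshold, except that Ckm with IGF1 against vehicle was not called with scaling by library size only (log2 0.09). Gatm with phenylephrine against vehicle lost its call without any 1 of the 6 samples compared (log2 0.85 to 0.93), while without IGF1 replicate 1 it was called (log2 0.91, SE 0.05), as was Ckb (log2 0.15, SE 0.03). Ckb was also called when only phenylephrine and vehicle were fitted, and Ak1 as lower with scaling by library size only (log2 -0.20). Gatm with phenylephrine against IGF1 ran from -0.34 to 0.18, and the value of 0.18, without IGF1 replicate 1, was called as higher. The calls over all genes ranged from 6064 to 7624 with phenylephrine against vehicle, from 4802 to 6486 with IGF1 against vehicle and from 5686 to 7300 with phenylephrine against IGF1 when 1 sample was left out.

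The replicate block gave 6648 calls with phenylephrine against vehicle, 5594 with IGF1 against vehicle and 6312 with phenylephrine against IGF1. It changed no call among the 7 genes. Deviations of same-numbered samples correlated at -0.085 to 0.021, and those of different-numbered samples at -0.073 to 0.11. The numbers were not taken as pairs. Deviations from means of 3 samples cannot show whether same-numbered samples shared a culture or litter. Under scaling by library size only, named list genes near 0 changed sign: with phenylephrine against vehicle Esrra to -0.084, Mat2b to -0.19, Ada to -0.14, Asl to -0.12 and Nt5c1a to -0.15, with IGF1 against vehicle Esrra to -0.0036, and with phenylephrine against IGF1 Esrra to -0.081, Mthfd1 to -0.10 and Prkaa2 to -0.11. Of these, Esrra with phenylephrine against vehicle had been called. Shares of creatine kinase reads per kilobase were not computed, since transcript lengths were not used here.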
